A study of Mus musculus with 23 samples.

Results

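The miRNAs described here belong to the rodent cluster in an intron of Sfmbt2, and they were the rows of the liver miRNA count table whose names start with mmu-miR-297, mmu-miR-466, mmu-miR-467 or mmu-miR-669 followed by a letter or a dash. Of 1218 mature miRNAs in the table, 37 had such a name. The libraries were made from liver small RNA of 23 male C57bl/6J mice of the F3 generation, 1 library a mouse. The reference group (8 libraries, numbered 1 to 8) came from the control lineage, whose breeding diet held 1% of high oleic sunflower oil over the generations, and was then kept on low-fat food (10% of the energy as fat). The HFoleic group (8 libraries, numbered 9 to 15 and 23) came from the same lineage but ate high-fat, high-sucrose food (45% of the energy as fat). The HFepa group (7 libraries, numbered 16 to 22) received that high-fat diet too, but descended from the omega 3 lineage, whose breeding diet held 1% of a fish oil rich in eicosapentaenoic acid (EPA). The diet challenge lasted 17 weeks in all groups. No group of the omega 3 lineage on the low-fat diet was analysed here, and the reference mice differ from the HFepa mice in both lineage and diet.

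Sfmbt2 encodes a Polycomb group protein, and in the mouse it is an imprinted gene expressed mainly from the paternal allele in extraembryonic tissue. One of its introns carries a long array of tandemly repeated miRNA hairpins that is found in rodents and has been studied chiefly in the placenta and in embryonic stem cells. The hairpins arose by repeated duplication, so that many mature miRNAs of the array are near copies of each other, and a short read may match several of them.

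The label of the cluster was checked against the GENCODE annotation of GRCm38. Sfmbt2 lies on the plus strand of chromosome 2, from 10370510 to 10595253. The annotation names 81 hairpin genes of the 4 families, of which 71 lie inside Sfmbt2, all on its strand and all in the intron between exons 10 and 11 of the transcript Sfmbt2-201 (chromosome 2, 10461473 to 10523944). The array spans 51.6 kb of this 62.5 kb intron. Within the intron, 29 hairpins carry the name miR-669, 23 the name miR-466, 14 the name miR-467 and 5 the name miR-297. Of the 71 hairpins, 59 have a name with a row in the count table. Of the 37 miRNAs, 32 have all of their annotated hairpins in Sfmbt2 and 4 have copies both there and elsewhere. The exception is miR-466q, whose only hairpin lies on chromosome 3 (28419943 to 28420018, plus strand) within the gene Tnik, and which had 3 reads in all. The copies elsewhere are Mir466f-4 on chromosome 13 (71107089 to 71107209) and Mir297-1 on chromosome 7 (10958437 to 10958512). A further 48 miRNA genes annotated inside Sfmbt2 carry no name of these families and were not assigned.

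**Figure D1:**
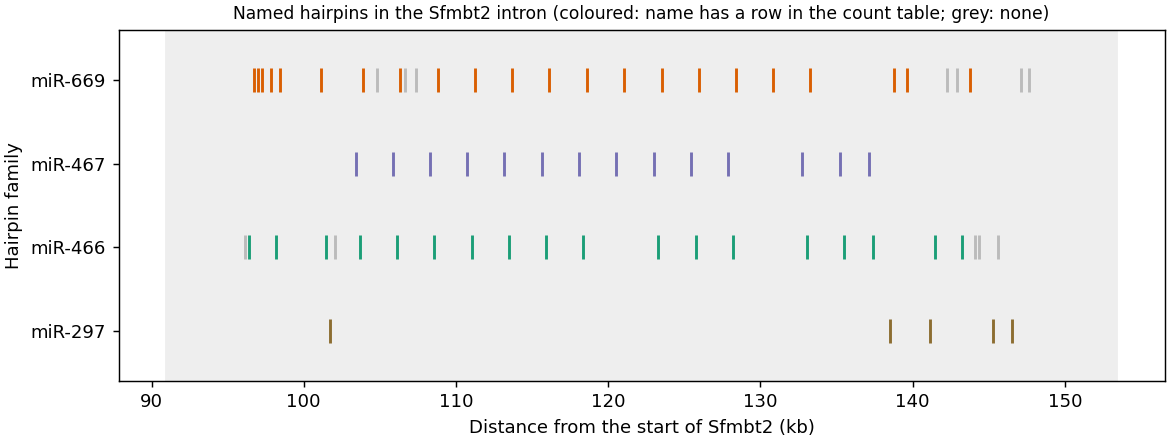
Position of the 71 named hairpins along Sfmbt2, in kb from the start of the gene, with 1 row for each of the 4 families; the shaded band is the intron between exons 10 and 11. Coloured ticks are the 59 hairpins whose name has a row in the count table and grey ticks are the others. Hairpins of miR-466, miR-467 and miR-669 alternate in the middle of the array. Those of miR-467 start between 103.4 and 137.1 kb, and the ends of the array hold none.

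The RefSeq sequence table (GRCm38.p6) held the mature sequence of 1 of the 37 miRNAs, miR-466q, whose only hairpin lies outside Sfmbt2. No mature sequence from the array itself could be shown. miR-466q is shown for its short repeat. Below it are same-family sequences in that table that come from genes outside Sfmbt2 and that had no row in the counts. Their similarity to each other and to the miRNAs of the array was not measured. All are written 5′ to 3′ with the seed, bases 2 to 8, in capitals.

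miR-466q (chr3:28419988-28420007, plus strand): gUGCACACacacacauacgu
miR-466k (chr3:85467396-85467418, plus strand): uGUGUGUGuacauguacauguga
miR-466j (chr10:60960802-60960824, plus strand): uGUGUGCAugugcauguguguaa
miR-466i-3p (chr13:17747552-17747573, plus strand): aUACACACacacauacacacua
miR-467f (chr11:69635419-69635439, minus strand): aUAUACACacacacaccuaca
miR-669n (chr3:115979905-115979924, plus strand): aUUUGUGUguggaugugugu

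The table also held miR-467g and miR-467h. Each of the 8 entries has a different seed, and each contains GUGUGU or its reverse complement ACACAC, against 28 of all 1674 distinct mature sequences in the table (1.67%). These letters are a description of the sequences and not of a binding site, and the 28 sequences include the 8 entries. The Mir297-1 hairpin, a copy of miR-297a outside Sfmbt2, contains neither GUGUGU nor ACACAC. It shows a different short repeat, tandem AUGU, in capitals. Its first run holds 5 copies of AUGU, and 5 of 1005 hairpins in the table (0.498%) hold at least 2 copies in tandem.

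Mir297-1 (chr7:10958437-10958512, minus strand): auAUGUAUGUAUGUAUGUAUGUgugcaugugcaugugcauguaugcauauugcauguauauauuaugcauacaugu

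Shared sequence and gene copies bear on every count below. Of the 37 miRNAs, 24 have a single annotated hairpin and 13 have several, and the latter took 340 of the cluster's reads against 365 for the former. miR-669a has 12 hairpins, miR-467a has 10 and miR-466b has 8, so that a read of these cannot be placed at a single copy. How reads that match several mature miRNAs were shared between them is not given in the sources used here. In 7 of the 37 miRNAs (18.9%) the counts in all 23 libraries were identical to those of another cluster miRNA, against 186 of 1218 rows in the whole table (15.3%). These were miR-466a-3p, miR-466e-3p and miR-466p-3p, each with a single read in library 4, miR-297b-3p and miR-297c-3p, each with a single read in library 19, and miR-466d-5p and miR-466n-5p, with 2 reads each. Whether such groups are 1 read counted under several names or separate reads cannot be told from the counts.

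Library totals lay between 3725432 and 8139344 reads, with a median of 5981328 in the reference, 5408676 in HFoleic and 4400595 in HFepa. miR-122-5p, the defining hepatocyte miRNA, had a mean of 18693 CPM (counts per 1000000 reads, scaled with edgeR's TMM factors) ± 3693 (SD, n = 8) in the reference, 18660 ± 2045 (n = 8) in HFoleic and 18690 ± 2782 (n = 7) in HFepa. A set of 3 reference libraries stood apart from the other 20. In library 3 the summed level of 5 hepatocyte miRNAs was 187956 CPM, against 263735 to 357694 in the other 20, and that of 5 leukocyte miRNAs was 2923 CPM, against 1192 to 2000. In library 4 the sum of 4 muscle miRNAs was 216.7 CPM, against 1.42 to 12.2, and that of 4 red blood cell miRNAs was 8773 CPM, against 3624 to 7256. In library 5 the sum of 4 pancreas miRNAs was 2021 CPM, against 9.47 to 34.1. Nearly all of that sum in library 5 was miR-375-3p. Of the same list, miR-216a-5p and miR-217-5p had no more reads there than in library 2, so the 4 did not rise together. The leukocyte sums of libraries 4 and 5, at 2103 and 2144 CPM, were also above the range of the other 20. So were the pancreas sum of library 4, at 57.4 CPM, and the red blood cell sum of library 5, at 7635 CPM. The TMM factor of library 3 was 1.26, against 0.930 to 1.13 in the others. In whole liver, more cells of a type and more RNA per cell cannot be told apart. The main values of the reference group are therefore given with and without these 3 libraries. Without them the reference mean of miR-122-5p was 20651 ± 1572 CPM (SD, n = 5), above the means of both other groups.

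The cluster was barely detected in these livers. The 37 miRNAs took 705 of 124569246 reads, or 5.66 CPM by library size. The most abundant, miR-467d-5p, ranked 445th among the 1218 miRNAs by total reads. The rows of the table had a median of 26 reads over all libraries, and 29 of the 37 fell below it. The table's lowest row total was 1 read, so a cluster miRNA without a read would have no row. A total of 14 cluster miRNAs had at least 10 reads, 18 had 3 or fewer and 9 had a single read. Only miR-669a-3p was present in all 23 libraries, and 10 miRNAs were seen in 1 library each. A count of 0 in a library allows a level of up to 0.360 to 0.788 CPM, depending on the library (3 reads of its scaled total; counting error only). Even the lower of these limits exceeds the mean level of all but the 6 most abundant cluster miRNAs.

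**Figure D2:**
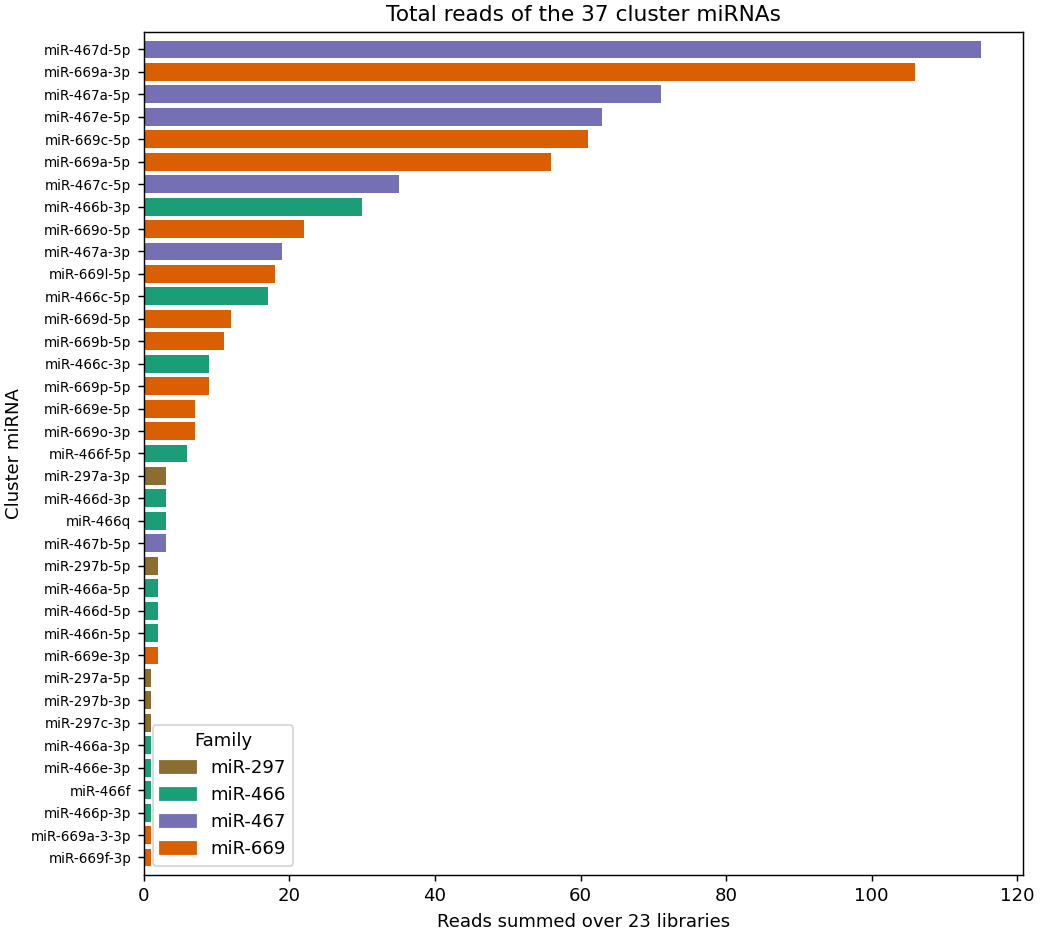
Reads of each of the 37 cluster miRNAs summed over the 23 libraries, coloured by family. The bars fall from 115 reads for miR-467d-5p to a single read for 9 miRNAs, and the first 6 bars hold 67.0% of all reads of the cluster.

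The reads were unevenly divided among the families. The 13 miRNAs named miR-669 had 313 reads, or 44.4% of the cluster (exact binomial 95% confidence interval 40.7 to 48.2%; these intervals cover counting error only and not the spread between mice). The 6 named miR-467 had 306, or 43.4% (39.7 to 47.2%). The 13 named miR-466 had 78, or 11.1% (8.84 to 13.6%), and the 5 named miR-297 had 8, or 1.13% (0.491 to 2.22%). Library 3 alone held 47 of the miR-669 reads. Without it miR-669 had 266 reads and miR-467 had 280, so no order between these families was drawn. The miR-466 hairpins outnumbered those of miR-467 in the intron by 23 to 14 while having fewer reads. The 6 miRNAs with over 50 reads, miR-467d-5p, miR-669a-3p, miR-467a-5p, miR-467e-5p, miR-669c-5p and miR-669a-5p, held 472 reads.

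The 5p arm took 73.0% of the reads (69.6 to 76.3%) and the 3p arm 26.4% (23.2 to 29.8%). The arms were not divided alike in the families. In miR-467 the 5p miRNAs had 287 reads and the only 3p row, miR-467a-3p, had 19. In miR-669 the 5p miRNAs had 196 reads and the 3p miRNAs 117, and in miR-466 the 5p miRNAs had 29 and the 3p miRNAs 45. Both arms of a hairpin had a row in 9 cases. miR-467a had 71 reads of its 5p arm and 19 of its 3p arm, miR-669o had 22 and 7, and miR-466c had 17 and 9. miR-669a was the reverse, with 56 reads of the 5p arm and 106 of the 3p arm.

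The counts of the leading miRNAs show how few reads stood behind each value. miR-467d-5p, which has a single hairpin annotated by name, had 59 reads in the reference, 29 in HFoleic and 27 in HFepa. Its lowest, median and highest levels were 0.495, 1.16 and 1.68 CPM in the reference, 0, 0.720 and 1.82 CPM in HFoleic, and 0.635, 0.788 and 1.36 CPM in HFepa. The groups overlapped over most of their range, and the highest and the lowest library, 14 and 15, were both of HFoleic. The reference median was 0.810 CPM without libraries 3, 4 and 5.

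miR-669a-3p had 53, 29 and 24 reads in the reference, HFoleic and HFepa. Its lowest, median and highest levels were 0.504, 0.756 and 2.75 CPM in the reference, 0.312, 0.508 and 1.28 CPM in HFoleic, and 0.635, 0.759 and 1.13 CPM in HFepa. Library 3 alone held 19 of the 53 reference reads, and the next reference library, 4, held 9. Apart from library 3, the groups overlapped. Without libraries 3, 4 and 5 the reference median was 0.660 CPM, with a highest value of 0.972 CPM.

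miR-467a-5p had levels of 0.324, 0.718 and 1.43 CPM (lowest, median, highest) in the reference, 0, 0.367 and 0.873 CPM in HFoleic, and 0, 0.680 and 1.05 CPM in HFepa. Its highest library was library 2 of the reference, which did not stand apart in the marker miRNAs. miR-467e-5p had nearly equal medians of 0.453 CPM in the reference, 0.464 CPM in HFoleic and 0.476 CPM in HFepa. miR-669c-5p had medians of 0.426, 0.339 and 0.476 CPM and was at 0 in library 4 of the reference and library 10 of HFoleic. In these miRNAs too the groups overlapped. Leaving out libraries 3, 4 and 5, the reference medians were 0.426 CPM for miR-467a-5p, 0.382 CPM for miR-467e-5p and 0.191 CPM for miR-669c-5p.

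miR-669a-5p, the other arm of miR-669a, had its highest median in HFoleic: 0.344 CPM in the reference, 0.538 CPM in HFoleic and 0.423 CPM in HFepa; the reference median was 0.330 CPM without libraries 3, 4 and 5. miR-467c-5p had 12 reads in the reference, 12 in HFoleic and 11 in HFepa. The remaining 5 of the 12 most abundant miRNAs, miR-466b-3p, miR-669o-5p, miR-467a-3p, miR-669l-5p and miR-466c-5p, had between 17 and 30 reads in all and were at 0 in at least 1 library of every group. The other 25 cluster miRNAs had 92 reads together.

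**Figure D3:**
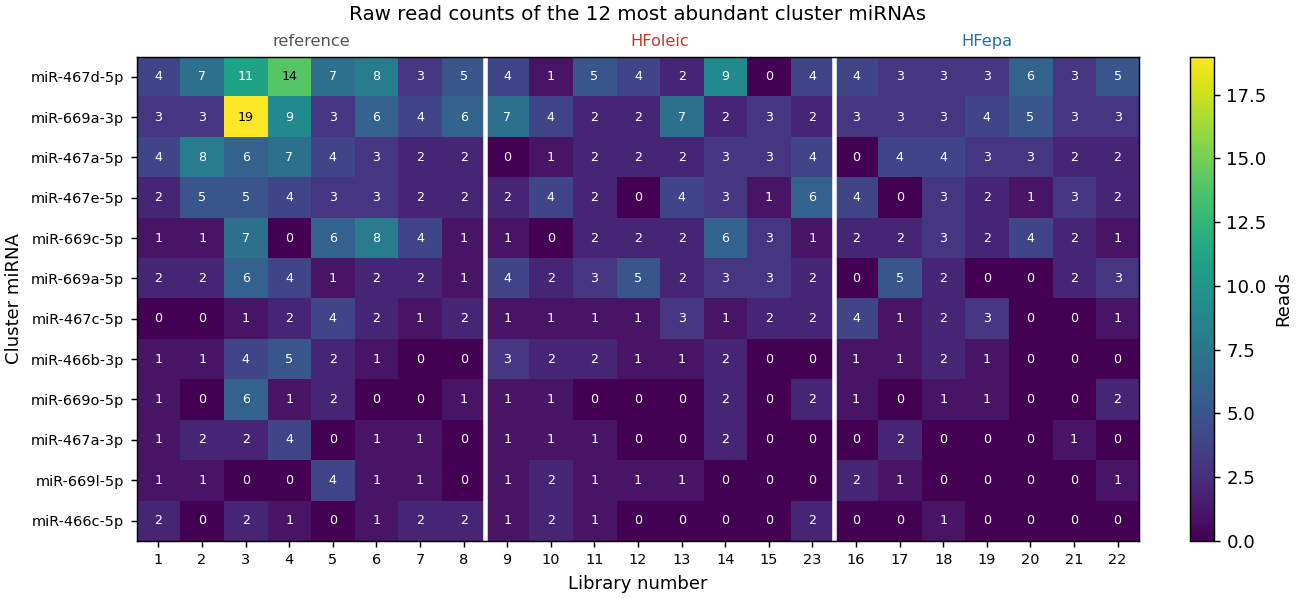
Raw reads of the 12 most abundant cluster miRNAs (rows) in each library (columns, by library number), with white lines between the groups and the count printed in each cell. The brightest cell is miR-669a-3p in library 3 with 19 reads; most other cells hold 5 reads or fewer.

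The reads of all 37 miRNAs were summed in each library to ask whether the cluster as a whole differed with the diet or the lineage. The sum was 22 to 84 reads in the reference, 17 to 38 in HFoleic and 19 to 26 in HFepa. In CPM, the lowest, median and highest sums were 3.63, 5.77 and 12.2 in the reference, 3.51, 4.72 and 7.71 in HFoleic, and 4.31, 5.37 and 6.58 in HFepa. The means were 6.32 ± 2.74 CPM (SD, n = 8), 4.92 ± 1.37 CPM (n = 8) and 5.41 ± 0.783 CPM (n = 7). The groups overlapped, and the differences between their means were not tested. Library 3 widened the SD of the reference, which was 1.49 CPM without it (n = 7). Libraries 3, 4 and 5 had the 3 highest sums of the reference, at 12.2, 7.67 and 6.88 CPM. Without them the reference had a mean of 4.77 ± 1.01 CPM (n = 5) and a range of 3.63 to 5.82 CPM, and its mean then lay below those of both other groups. The part of the other cell types' miRNAs in these 3 sums was not tested.

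Library 3 had 84 cluster reads, or 15.3 CPM by library size alone (exact binomial 95% confidence interval 12.2 to 18.9, counting error only), whereas the next library, 4, had 7.86 CPM (6.06 to 10.0). The excess of library 3 lay mainly in miR-669, with 6.81 CPM against 1.43 to 2.98 CPM in the other reference libraries. Its miR-467 sum of 3.77 CPM was within the 1.49 to 4.11 CPM of the other reference libraries, as was its miR-466 sum of 1.30 CPM (0.179 to 1.44 CPM in the others). The miR-467 medians were 2.72 CPM in the reference, 1.57 CPM in HFoleic and 2.62 CPM in HFepa, and the miR-669 medians were 2.09, 2.30 and 2.04 CPM; the groups overlapped in both families. The reference medians were 2.10 CPM for miR-467 and 1.82 CPM for miR-669 without libraries 3, 4 and 5.

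The spread between mice was set against counting error. The chi-square of the summed reads about their group mean, divided by its degrees of freedom, is about 1 where only counting error acts. It was 7.67 in the reference, 2.01 in HFoleic and 0.481 in HFepa. For the reference it was 11.99 by library size in place of TMM, 2.71 without library 3 and 1.33 without libraries 3, 4 and 5. These values describe the libraries, and the groups were not compared on them.

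The number of cluster miRNAs with a read had a median of 14.5 per library in the reference (11 without libraries 3, 4 and 5), 13 in HFoleic and 11 in HFepa. When each library was taken to the lowest total by the expected value of thinning, the medians were 11.2, 9.51 and 10.2, and the ranges of 8.06 to 18.4, 7.54 to 12.9 and 4.84 to 13.0 overlapped; without libraries 3, 4 and 5 the reference median was 8.97.

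**Figure D4:**
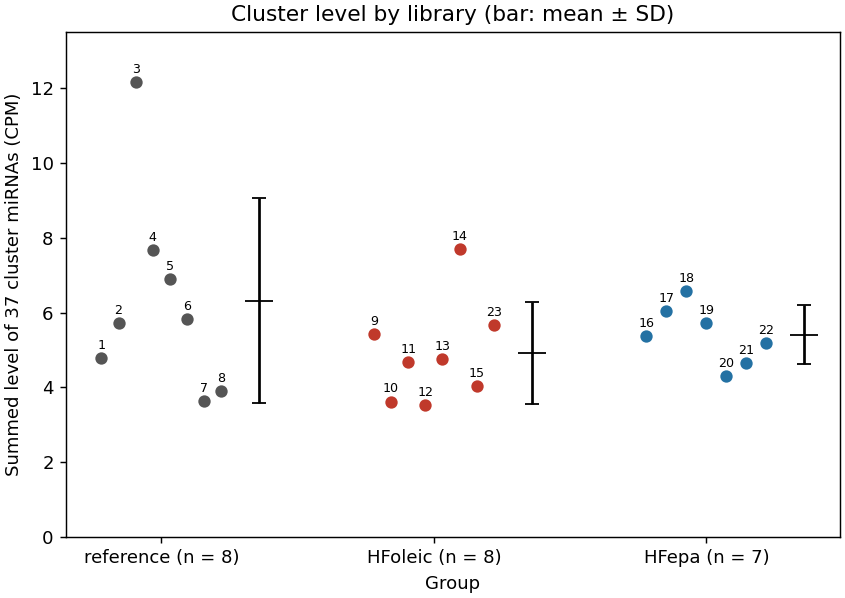
Summed level of the 37 cluster miRNAs in CPM for each library, marked with its library number, by group; black bars are the mean ± SD of the group. Library 3 stands at 12.2 CPM, and the other 22 libraries lie between 3.51 and 7.71 CPM with all groups overlapping.

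Differences between groups were tested across the whole table with edgeR's quasi-likelihood test, where a call needed both a Benjamini-Hochberg adjusted p below 0.05 and a log2 fold change beyond 0.25 in size. The filter on low counts kept 386 miRNAs and none of the 37 of the cluster, so this fit gives no test of a cluster miRNA. It called 12.4% of the miRNAs tested in HFoleic vs. reference and 15.8% in HFepa vs. reference. Between the high-fat groups, HFepa and HFoleic, it called 0% (22 had an unadjusted p under 0.05, and DESeq2 called 0). Without libraries 3, 4 and 5 the calls numbered 2 in place of 48 in HFoleic vs. reference and 32 in place of 61 in HFepa vs. reference. Since no cluster miRNA passed the filter, the cluster was examined in the fit of all 1218 miRNAs without the filter. There, 0 of 37 were called in any comparison, against 2.38% of all miRNAs in HFoleic vs. reference, 3.53% in HFepa vs. reference and 0% between HFepa and HFoleic. At an unadjusted p under 0.05 there were 0, 3 and 0 of the 37 cluster miRNAs, in that order. Of all 1218 miRNAs, 16.17%, 16.83% and 5.42% were under it. DESeq2 called 0 in each comparison, at an unadjusted p under 0.05 it had 0, 0 and 0, and it gave no adjusted p for 32 of them in HFoleic vs. reference and 28 in HFepa vs. reference. The lowest adjusted p of a cluster miRNA by edgeR was 0.299, 0.241 and 0.750. Without libraries 3, 4 and 5 edgeR called 0 cluster miRNAs, with 2, 1 and 0 at an unadjusted p under 0.05 and lowest adjusted p of 0.412, 0.447 and 0.612. At this depth no difference was detectable, which does not show that the groups were alike.

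In HFoleic vs. reference, which asks for the effect of the high-fat diet within the control lineage, 22 of the cluster miRNAs had a negative and 11 a positive fold change, with a median of -0.44 on the log2 scale against -0.10 over all 1218 miRNAs. In HFepa vs. reference, 26 were negative and 9 positive, with a median of -0.30 against -0.17. By DESeq2 on the same libraries, 22 were negative and 11 positive in HFoleic vs. reference, but 15 were negative and 20 positive in HFepa vs. reference, with medians of -0.12 and 0.01. Both comparisons use the same reference libraries. Without library 3 alone the edgeR medians were -0.03 and -0.09, with 20 negative and 12 positive in the first and 18 negative and 15 positive in the second. Without libraries 3, 4 and 5 the counts were 18 negative and 15 positive in HFoleic vs. reference and 16 negative and 17 positive in HFepa vs. reference, and both medians were at 0.00. The balance of signs thus depended on the libraries and, in HFepa vs. reference, on the tool, and no direction is drawn from it. In HFepa vs. HFoleic, which compares the lineages on the same high-fat diet, 16 were negative and 15 positive, with a median of 0.00 for the cluster and for all miRNAs; by DESeq2 9 were negative and 22 positive, with a median of 0.00.

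The fold changes of single miRNAs had wide errors. In HFoleic vs. reference, the log2 fold change was -0.71 ± 0.43 (SE) for miR-467d-5p and -0.58 ± 0.39 for miR-669a-3p, and without libraries 3, 4 and 5 they were -0.44 and -0.16. The extremes among the 12 most abundant were -0.77 for miR-467a-3p and 0.51 for miR-669a-5p. In HFepa vs. reference they ran from -1.96 ± 0.93 for miR-466c-5p (-2.18 without libraries 3, 4 and 5) to 0.64 for miR-467c-5p, and the miR-669a-3p value of -0.32 ± 0.41 became 0.13 without the 3 libraries. In HFepa vs. HFoleic they ran from -1.48 for miR-466c-5p to 0.55 for miR-467a-5p. The SE lay between 0.39 and 1.08 over the 12 miRNAs and the 3 comparisons.

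The 3 miRNAs with an unadjusted p under 0.05 in HFepa vs. reference rested on a handful of reads each. miR-466c-5p had 10 reads in the reference, 6 in HFoleic and 1 in HFepa (edgeR adjusted p = 0.288). miR-669o-3p had 5, 2 and 0 reads (adjusted p = 0.241). miR-466a-5p had 0, 0 and 2 reads, both in 1 library (adjusted p = 0.296). The last 2 were named after their values were seen.

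**Figure D5:**
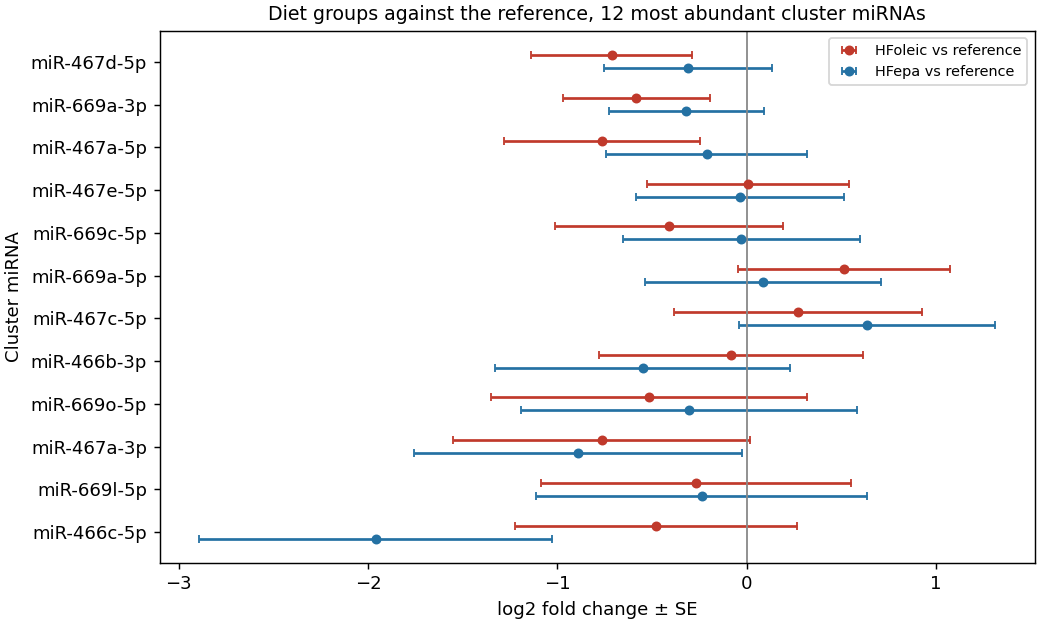
Log2 fold change ± SE from edgeR without the low-count filter for the 12 most abundant cluster miRNAs, HFoleic vs. reference in red and HFepa vs. reference in blue, both against the same reference libraries. Most bars cross or come close to 0, none of the points was called, and miR-466c-5p in HFepa vs. reference lies farthest out at -1.96.

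The library numbers are partly bound to the groups: all reference libraries are numbered 1 to 8 and all HFepa libraries 16 to 22. Only HFoleic has libraries on both sides of number 12. Its libraries 9 to 11 had summed cluster levels of 3.62, 4.68 and 5.42 CPM (lowest, median, highest) and its 5 later libraries 3.51, 4.75 and 7.71 CPM, which overlapped. Among libraries 1 to 11 alone, and among libraries 12 to 23 alone, 0 cluster miRNAs were called by edgeR, with 1 and 0 at an unadjusted p under 0.05.

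Compared with the imprinted miRNAs of the Dlk1-Dio3 region and with miR-335 of Mest, the cluster was low. The Dlk1-Dio3 region, the maternally expressed imprinted miRNA cluster of the mouse, had 79 rows in the table and 68304 reads. Its summed level was above that of the Sfmbt2 cluster in 23 of 23 libraries, by a median ratio of 36.3. In the 20 libraries other than 3, 4 and 5 the ratio lay between 19.1 and 49.1, and it reached 1008 in library 5, where the Dlk1-Dio3 sum was 6936 CPM against 138.1 to 225.7 CPM in those 20. The Dlk1-Dio3 sum of library 3 was 1046 CPM. Of 13 Dlk1-Dio3 miRNAs that passed the filter, 13 were called lower in HFoleic vs. reference (7.51% of all miRNAs tested were) and 11 in HFepa vs. reference (10.6% of all), and 0 in either without libraries 3, 4 and 5. The sum of the Sfmbt2 cluster in library 5 was 6.88 CPM. The other imprinted miRNAs examined, of Mest, Igf2, H19 and the Gnas antisense gene, had 9 rows and 13943 reads. Of these reads miR-335-5p held 8381 and miR-335-3p 5090, so the rest were low too and were not set against the cluster. miR-335-5p, from the paternally expressed gene Mest, had 61.8 ± 5.44 CPM in the reference (n = 8; 59.1 ± 5.11 without libraries 3, 4 and 5, n = 5), 69.1 ± 7.65 in HFoleic (n = 8) and 73.8 ± 11.7 in HFepa (n = 7), so that this miRNA alone stood above all 37 of the Sfmbt2 cluster together. miR-335-3p had 31.9 ± 7.93, 45.6 ± 8.20 and 49.2 ± 7.60 CPM in the same groups. Of the 9 rows 2 passed the filter, and 1 was called higher in HFoleic vs. reference and 1 in HFepa vs. reference. Of all miRNAs tested, 12.4% and 15.8% were called in either direction. In both comparisons 1 was also called higher without libraries 3, 4 and 5.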

How the data were processed

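The authors removed adapters with the FASTX-Toolkit, aligned reads with Bowtie in ncPRO-seq and deposited raw read counts per mature miRNA of miRBase. The methods name the genome as GRCm38.p6 and as mm9, the labels as mm10; they also give different RNA inputs. Only these deposited counts were used; the same table also holds scaled counts, group means and the results of their own tests, none of which was used. Totals are sums over the table's 1218 miRNAs.

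Groups were taken from the labels; each mouse is 1 replicate. edgeR 4.0.16 (R 4.3.3; TMM, filterByExpr, quasi-likelihood test) was fitted on the whole table with the 3 groups, and again without the filter, since 0 cluster miRNAs passed it. CPM use the TMM factors of the filtered fit. The SE is the log2 fold change divided by the square root of F. The fits were tested on simulated data. Alternatives were DESeq2 1.42.0, library size, filters, library number, identical rows and leaving out libraries; leaving out libraries 3, 4 and 5 together and thinning were added after seeing the data. Python 3.11.15 was used with pandas 2.3.3, SciPy 1.17.1 and matplotlib 3.10.9. Hairpins were placed by gene name in GENCODE M21.

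The cluster miRNAs, lists and tests were chosen with earlier results of these data known. Named were called cluster miRNAs, the 12 of highest mean CPM, those with identical counts, miR-335 and miR-122-5p.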

Additional observations from a re-analysis of the deposited data

Results flagged for a closer look

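In each group, the highest and the lowest library were compared with the nearest of the others by Dixon's criterion, for the summed cluster, the 4 families and the 12 most abundant miRNAs. Of 51 such groups of libraries 11 were marked, where chance marks about 1 in 20, and these values share libraries and reads, and many are whole steps of 1 to 6 reads. Of the marks, 6 were in library 3 of the reference: the summed cluster at 12.2 CPM (nearest library 7.67), the miR-669 sum at 6.81 CPM (nearest 2.98), the miR-297 sum at 0.290 CPM, miR-669a-3p at 2.75 CPM (nearest 1.08), and miR-669a-5p and miR-669o-5p at 0.869 CPM each (nearest 0.479 and 0.336). In library 5 of the reference, miR-669l-5p had 0.672 CPM (nearest 0.191). miR-467a-3p stood out in library 14 of HFoleic at 0.406 CPM (nearest 0.175) and in library 17 of HFepa at 0.526 CPM (nearest 0.212). miR-466c-5p in library 18, at 0.253 CPM, and the miR-297 sum in library 19, at 0.714 CPM, were the only values above 0 in HFepa.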

How the results depend on the processing

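The count of called cluster miRNAs was 0 under every alternative run, but in 86 of 92 values, those of the fits with a filter, no cluster miRNA was tested. Over all alternatives without the filter, the lowest adjusted p of a cluster miRNA lay between 0.192 and 0.709 in HFoleic vs. reference, 0.133 and 0.803 in HFepa vs. reference, and 0.612 and 1 in HFepa vs. HFoleic, where DESeq2 and edgeR are both included; the value of 0.133 came without library 18.

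The number of all miRNAs called moved more. In HFoleic vs. reference it was 48, but 20 by DESeq2, 29 without the filter, 1 with a term for the library number, 0 in libraries 1 to 11 alone and 2 without libraries 3, 4 and 5. In HFepa vs. reference it was 61, but 0 with the term for the library number and 32 without libraries 3, 4 and 5. Leaving out single libraries gave 12 to 53, 32 to 66 and 0 to 1 in the 3 comparisons. In the first the count was 12, 24, 21 and 20 without libraries 5, 13, 14 and 15, in the second 36, 38, 38 and 32 without libraries 5, 16, 18 and 22, and in the third 1 without library 19. The term rests on HFoleic alone, and the cause of these shifts was not tested.

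The mean summed level lay between 5.48 and 6.70 CPM in the reference, 4.53 and 5.13 CPM in HFoleic and 5.21 and 5.59 CPM in HFepa when single libraries were left out, the lowest reference value being that without library 3. By library size it was 6.74, 4.81 and 5.36 CPM, with identical rows counted once 6.27, 4.91 and 5.37 CPM, and from miRNAs with all hairpins in Sfmbt2 6.21, 4.89 and 5.22 CPM. Each of these moved by less than the SD of its group.

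Of 204 fold changes of the 12 most abundant miRNAs under the alternatives other than leaving out single libraries, 19 moved by more than their SE and 33 changed sign, of which 10 and 12 were with the term for the library number and 6 and 8 without libraries 3, 4 and 5; of 828 with single libraries left out, 5 moved and 54 changed sign. None was called, so no direction is drawn from any of them. No paired analysis was possible because the labels give no replicate numbers shared between groups. Most cluster miRNAs had fewer than 10 reads in 23 libraries, and depth limits every value here.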
